A study of Homo sapiens with 4 samples.

Results

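The genome was divided into fixed windows of 100 kb on chromosomes 1 to 22, and the regions described here are the windows that held 20 or more ATAC-seq peaks. There were 932 such peak-dense windows among 24182 windows with a peak, and they held 21693 of the 185009 peaks on these chromosomes. A peak was assigned to the window in which it starts, and chromosome 1 peaks that start within the first 250 kb were left out. Peak-dense windows therefore made up 3.85% of the windows with a peak and 11.7% of the peaks, over 93.2 Mb. Accessibility was compared between 2 libraries of LM2 cells with a CECR2 deletion made with the guide sg1 and 2 libraries of LM2 cells with a nontargeting control guide. LM2 cells are a subline of the human breast cancer line MDA-MB-231 that spreads readily to the lung. Both groups were grown in medium with puromycin, and each library came from 50000 cells. The labels do not say whether the sg1 cells were a clone or a pool or whether the 2 libraries of a group came from separate cultures, and p-values cover the spread between these libraries only.

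ATAC-seq uses the Tn5 transposase to cut DNA that is not wrapped tightly in nucleosomes, and clusters of cuts are called as peaks at active promoters and enhancers. Regions in which many enhancers lie close together often surround genes that define a cell's identity or that respond to signals, while gene-rich regions collect many promoters. CECR2 is a bromodomain protein that reads acetylated histones and forms chromatin remodelling complexes with ISWI ATPases.

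The promoters below were chosen to show regulatory sequence inside the windows that changed most. For each window named for its smallest p, or for the largest share of its peaks lower, the protein-coding promoter was taken whose overlapping peak moved most in the direction of the window. Such a promoter was found in 8 of 13 windows. Each sequence is the RefSeq promoter of GRCh38.p14, from 250 bases before to 50 bases after a transcript start, read 5′ to 3′ on the strand of the gene. Capitals mark matches on either strand to the kappaB motif, by which NF-kB binds, or to the GC box GGGCGG, by which SP and KLF factors bind. Of all 33725 promoters in the RefSeq table of these chromosomes, 11.3% held a kappaB match and 45.0% a GC box. The AP-1 motif TGANTCA, which reads the same on both strands, was held by 7.7% of them and by none of the 8 below. The first 3 lay under peaks that were lower in sg1: IL1B (minus strand), which encodes the inflammatory cytokine interleukin-1 beta, LAMB3 (minus strand), a chain of the basement membrane protein laminin-332, and MMP8 (minus strand), a collagenase. The other 5 lay under peaks that were higher in sg1: ACTR3C (minus strand), an actin-related protein, HSPB1 (plus strand), a small heat shock protein, KRT8 (minus strand), a keratin of simple epithelia, MYO18A (minus strand), an unconventional myosin, and NYAP1 (plus strand), an adaptor of phosphoinositide 3-kinase signalling.
IL1B: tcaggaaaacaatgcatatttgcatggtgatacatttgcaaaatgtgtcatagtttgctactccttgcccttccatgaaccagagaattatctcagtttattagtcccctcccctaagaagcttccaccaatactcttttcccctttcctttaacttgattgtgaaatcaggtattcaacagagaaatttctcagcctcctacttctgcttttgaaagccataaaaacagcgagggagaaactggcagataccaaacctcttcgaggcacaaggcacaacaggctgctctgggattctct
LAMB3: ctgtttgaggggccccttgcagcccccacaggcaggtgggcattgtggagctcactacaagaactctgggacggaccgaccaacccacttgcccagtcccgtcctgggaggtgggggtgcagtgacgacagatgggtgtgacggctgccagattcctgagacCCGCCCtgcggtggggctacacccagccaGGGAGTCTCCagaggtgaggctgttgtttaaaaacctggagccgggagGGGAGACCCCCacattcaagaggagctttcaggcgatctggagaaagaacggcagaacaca
MMP8: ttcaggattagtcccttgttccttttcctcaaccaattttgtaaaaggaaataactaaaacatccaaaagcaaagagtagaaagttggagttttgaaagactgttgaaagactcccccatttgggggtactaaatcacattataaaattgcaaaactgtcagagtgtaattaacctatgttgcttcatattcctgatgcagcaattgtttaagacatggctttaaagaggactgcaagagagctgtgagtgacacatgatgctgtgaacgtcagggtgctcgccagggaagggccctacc
ACTR3C: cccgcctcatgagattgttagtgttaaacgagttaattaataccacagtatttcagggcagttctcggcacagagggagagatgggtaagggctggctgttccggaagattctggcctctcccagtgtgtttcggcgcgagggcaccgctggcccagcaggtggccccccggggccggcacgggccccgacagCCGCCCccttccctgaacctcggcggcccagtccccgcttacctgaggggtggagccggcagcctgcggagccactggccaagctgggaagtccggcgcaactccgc
HSPB1: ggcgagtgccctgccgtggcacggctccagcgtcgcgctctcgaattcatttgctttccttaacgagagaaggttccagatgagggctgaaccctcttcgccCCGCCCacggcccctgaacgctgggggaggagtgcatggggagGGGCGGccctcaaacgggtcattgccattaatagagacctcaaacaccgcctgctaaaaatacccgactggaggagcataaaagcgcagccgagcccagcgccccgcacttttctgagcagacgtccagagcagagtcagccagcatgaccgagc
KRT8: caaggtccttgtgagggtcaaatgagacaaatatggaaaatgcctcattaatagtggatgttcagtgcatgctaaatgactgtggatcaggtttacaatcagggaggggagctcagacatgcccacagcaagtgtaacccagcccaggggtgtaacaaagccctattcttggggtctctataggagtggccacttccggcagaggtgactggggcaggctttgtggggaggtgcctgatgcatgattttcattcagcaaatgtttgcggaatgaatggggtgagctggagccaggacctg
MYO18A: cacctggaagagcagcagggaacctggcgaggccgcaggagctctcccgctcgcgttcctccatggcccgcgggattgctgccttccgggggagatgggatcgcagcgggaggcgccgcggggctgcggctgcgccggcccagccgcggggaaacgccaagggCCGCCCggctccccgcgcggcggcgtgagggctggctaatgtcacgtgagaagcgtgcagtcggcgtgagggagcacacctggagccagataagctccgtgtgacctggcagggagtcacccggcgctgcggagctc
NYAP1: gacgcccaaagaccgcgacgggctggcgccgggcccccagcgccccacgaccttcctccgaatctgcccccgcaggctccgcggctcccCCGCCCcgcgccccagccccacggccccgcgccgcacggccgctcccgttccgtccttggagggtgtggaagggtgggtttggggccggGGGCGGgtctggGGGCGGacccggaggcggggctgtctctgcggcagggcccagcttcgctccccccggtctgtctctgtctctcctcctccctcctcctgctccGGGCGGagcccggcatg

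The IL1B and MMP8 promoters were poor in G and C, at 42.3% and 40.7% of bases, and held neither a kappaB match nor a GC box. The LAMB3 promoter held 3 kappaB matches, some overlapping, and 1 GC box. Among the promoters that were higher, NYAP1 held 4 GC boxes, HSPB1 2, ACTR3C and MYO18A 1 each, and KRT8 0. The KRT8 sequence is that of a transcript start inside the gene. The same 3 motifs were counted in all promoters of protein-coding genes that lie under a tested peak of a peak-dense window. Of 98 such promoters with a lower peak, 19.4% held the AP-1 motif, 18.4% a kappaB match and 41.8% a GC box. Of 705 promoters with a higher peak, 3.7% held the AP-1 motif, 13.0% a kappaB match and 84.4% a GC box. Of 845 promoters whose peak did not pass the test, 7.7%, 18% and 71.6% held them. Outside peak-dense windows the AP-1 motif was held by 9.2% of 769 promoters with a lower peak and by 4.3% of 3936 with a higher peak. It was held by 5.3% of 7482 promoters there whose peak did not pass. In the same order, 57.0%, 77.4% and 68.2% of these promoters held a GC box and 13.9%, 14.5% and 13.4% a kappaB match. These shares are descriptions without a test, since promoters of 1 gene overlap and several can share a peak.

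After the start of chromosome 1 was left out, the sg1 libraries held 43519018 and 38924086 counts, against 21002477 and 15561701 in the control libraries. A median peak of a peak-dense window had 120 and 107 counts in the sg1 libraries, against 55 and 41 in the control libraries, and other peaks had 69 and 61, against 33 and 25. All 6 markers of basal, mesenchymal-like breast cancer cells (VIM, CD44, AXL, CAV1, ZEB1, LGALS1) had a peak that touched the gene's end or lay less than 1 kb away, with 16.3 to 79.6 CPM (counts scaled to library size) in sg1 and 18.4 to 85.4 CPM in the control. Such a peak was also found at 3 of 4 luminal, 3 of 3 epithelial and 3 of 4 blood cell markers. Among the luminal ones ESR1 had none, GATA3 had 8.19 CPM in sg1 and 4.81 CPM in the control (higher, adjusted p = 6.64e-04), FOXA1 had 10.9 CPM in sg1 and 10.1 CPM in the control, and PGR had 2.62 CPM in sg1 and 2.31 CPM in the control. The epithelial CDH1 had 0.277 CPM in sg1 and 0.617 CPM in the control, EPCAM 14.2 CPM in sg1 and 14.9 CPM in the control, and ESRP1 7.94 CPM in sg1 and 6.63 CPM in the control. The blood cell markers ran from 0.469 to 26.9 CPM in sg1 and from 0.861 to 32.0 CPM in the control, with CD3E the highest (lower in sg1, adjusted p = 0.0145). CECR2 lay in a window with 8 peaks, and its gene-end peak had 3.76 CPM in sg1 and 3.49 CPM in the control (adjusted p = 0.77, edgeR's quasi-likelihood test). A peak outside the edited bases gives no check of the deletion.

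Peak-dense windows took nearly the same share of the counts in every library. The share was 14.58% and 14.59% in the sg1 libraries and 14.70% in each control library. The groups did not overlap, and the difference of -0.115 percentage points had p = 0.333 in a two-sided exact permutation test, the smallest p that 2 against 2 libraries can give. Its sign turned with the limit on peaks per window, to 0.829 points at 15 or more peaks and 0.0273 points at 30 or more. A window held a median of 22 peaks and at most 39, and its peaks covered a median of 9675 bp. Peaks there had a median height of 2.74 CPM and a median width of 313 bp, against 1.6 CPM and 297 bp for other peaks on these chromosomes. The tallest peak of a window held a median of 21.3% of the window's counts.

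Counts were summed over the peaks of each window and compared with edgeR's quasi-likelihood test over 24051 windows, with Benjamini-Hochberg adjustment at a false discovery rate of 0.05. Of the 932 peak-dense windows, 323 were lower in sg1 (34.7%), 362 were higher (38.8%) and 247 did not pass. Over all windows 26.1% were lower and 24.7% higher, so both shares were above the background. Peak-dense windows also hold more counts, with a median of 148 CPM, against 21.6 CPM in windows with 1 to 19 peaks. The changes were small. The median log2 fold change (sg1 over control) was -0.21 among the lower windows and 0.22 among the higher ones, and 0.01 over all 932. Only 11 windows were lower and 8 higher by more than 1.5-fold, and 2 were lower and 0 higher by more than 2-fold. Changes of these sizes were not counted over other windows. The 8 higher ones include windows of the chromosome 1 block described below, at 0.75 and at 0.77, the highest value. Of the 11 lower ones, 5 are described below by rule; 4 others, listed after their values were seen, are those of CANT1, C1QTNF1, ENGASE and RBFOX3 (-0.82), of PSD4 and PAX8 (-0.67), of TNFAIP3 (-0.63) and a window on chromosome 6 without a protein-coding gene (-0.64). The replicates of a window differed by a median of 1.86% of their mean in sg1 and 2.98% in the control, and the groups did not overlap in any of the 323 lower windows and in 359 of the 362 higher ones. Over all 932 windows, called or not, the groups lay apart in 377 with sg1 below and in 420 with sg1 above. The same share was not counted over the windows with 1 to 19 peaks. Windows with a small p tend to lie apart, so these counts add no support to the calls.

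Peak by peak, 21334 of the 21693 peaks passed the filter on low counts and 359 did not. In sg1, 3439 were lower (16.1%) and 2896 higher (13.6%), against 16.8% lower and 11.5% higher over all 184717 peaks tested. The lower share was close to that of all peaks and the higher share was above it. Fewer were called in DESeq2 (2188 lower and 1300 higher), without sg1 replicate 1 (2197 and 1654) and without sg1 replicate 2 (2187 and 1567). The median log2 fold change was 0.06 over the tested peaks of peak-dense windows and 0.02 over those of other windows on these chromosomes. Peaks at most 1 kb from either end of a protein-coding gene, called gene-end peaks here, and the remaining peaks split in opposite directions. Of 3496 gene-end peaks in peak-dense windows 234 were lower (6.69%) and 887 higher (25.4%), and of 17838 other peaks 3205 were lower (18%) and 2009 higher (11.3%). Outside these windows 6.61% of gene-end peaks fell and 21.1% rose, and other peaks lower in 18% and higher in 10.1%. The split by position was thus similar outside peak-dense windows.

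Most windows with several called peaks held both directions. Of 715 peak-dense windows with 5 or more called peaks, 133 (18.6%) had all their called peaks in the same direction, lower in 87 and higher in 46. Of 2371 windows with 1 to 19 peaks, of which 5 or more were called, 733 (30.9%) did. The number of called peaks was not matched, and peak-dense windows can hold more of them, so these shares are not like for like. In the 323 lower windows a median of 27.3% of the peaks were lower and 4.76% higher, and 215 of these windows held called peaks of both directions. In the 362 higher windows a median of 20% of the peaks were higher and 4.76% lower, and 258 held called peaks of both directions. Of the 247 windows that did not pass, 218 also held called peaks of both directions. In 21 windows at least 50% of the tested peaks were lower, and in 7 at least 50% were higher. No called peak lay in 7 peak-dense windows. Of the 23250 windows with 1 to 19 peaks, which hold fewer peaks each, 2490 and 1234 reached these shares and 6010 held no called peak.

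The direction of a window moved with its number of protein-coding genes. Of 94 peak-dense windows that overlap no protein-coding gene 39 were lower and 32 higher. Of these 32 higher windows 18 form a block on chromosome 1, described below, without which 39 of 76 were lower and 14 higher (median -0.10). Of 306 with 1 gene 144 were lower (47.1%) and 66 higher (21.6%). Of 299 windows with 2 to 3 genes 107 were lower and 113 higher, and of 158 with 4 to 6 genes 28 were lower and 95 higher. Of 75 windows with 7 or more genes 5 were lower (6.67%) and 56 higher (74.7%). The median log2 fold change was 0.00, -0.07, 0.00, 0.14 and 0.21 in this order. Windows with 1 to 19 peaks also moved up with gene number, with 18 of 150 lower and 90 higher at 7 or more genes and 26.7% lower and 21.4% higher at 1 gene. Gene-end peaks made up 49.0% of the peaks in peak-dense windows with 7 or more genes and 5.10% in those with 1 gene. Among peaks away from gene ends, 11.4% were lower and 12.5% higher in windows with 7 or more genes, against 20.2% lower and 10.9% higher in windows with 1 gene, so these shares moved with gene number as well.

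**Figure D1:**
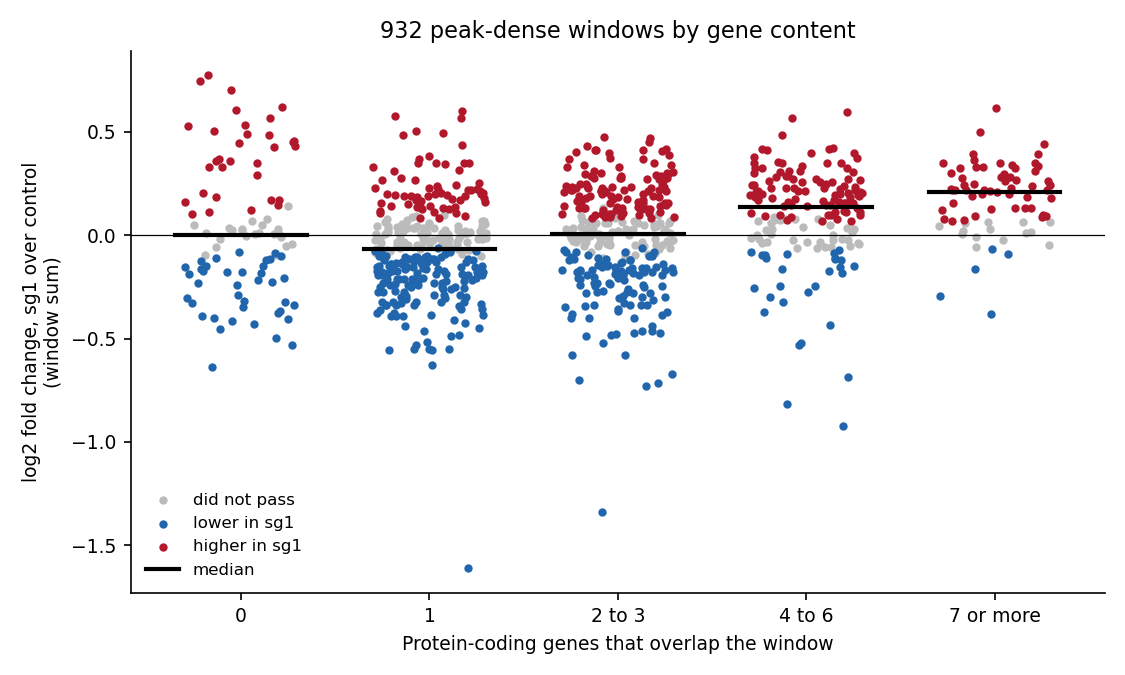
Log2 fold change of the summed counts (sg1 over control, vertical axis) of each of the 932 peak-dense windows, grouped by the number of protein-coding genes that overlap the window; points are windows, colours give the call and black lines are medians. From 1 gene on the median moves up with gene number, and 56 of 75 windows with 7 or more genes were higher in sg1.

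The window around IL1B (chr2:112800000-112899999) fell furthest and had the smallest p of all peak-dense windows. It had 79.3 and 73.7 CPM in the sg1 libraries, against 235 and 233 CPM in the control libraries, and the groups were far apart. Its log2 fold change was -1.61 ± 0.04 (SE; adjusted p = 1.51e-44, edgeR's quasi-likelihood test, 2 libraries per group), and 16 of its 20 peaks were lower and 0 higher. The loss was uneven along the window, and a stretch of the gene itself lost nearly all its cuts. The peak over the gene's downstream end (chr2:112828911-112829854) had 18 and 16 counts in the sg1 libraries, against 307 and 260 in the control libraries, which were less deep (log2 fold change -5.27). A peak inside the gene (chr2:112832000-112832246) had 2 and 4 counts in sg1, against 87 and 56 in the control (-5.70), the lowest value in the window. The IL1B promoter peak, over the sequence printed above, had 120 and 156 counts in sg1, against 358 and 227 in the control (-2.29 ± 0.16; adjusted p = 2.47e-13). The peak with the smallest p (chr2:112839288-112840024) lay 2.5 kb from the gene and had 94 and 108 counts in sg1, against 570 and 391 in the control (-3.46 ± 0.13). A pair of neighbouring peaks moved less; these and the peaks at -5.27 and -5.70 were chosen after their values were seen. The peaks at chr2:112869164-112869501 and chr2:112869567-112869940 had log2 fold changes of 0.00 and 0.27 and did not pass (adjusted p = 1.00 and 0.30).

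A window of matrix metalloproteinase genes (chr11:102700000-102799999) was also lower. It overlaps MMP27, MMP8, MMP10 and MMP1, of which MMP1 and MMP8 are collagenases and MMP10 is a stromelysin, enzymes that cut extracellular matrix. The window had 45.0 and 45.4 CPM in the sg1 libraries, against 86.1 and 85.4 CPM in the control libraries (log2 fold change -0.92 ± 0.05; adjusted p = 1.21e-22). Of its 20 peaks 14 were lower and 0 higher, and all 5 at gene ends were lower. The peak with the smallest p lay between genes, 12 kb from the nearest gene end, and had 35 and 25 counts in sg1, against 154 and 104 in the control (-3.31 ± 0.24). The MMP8 promoter peak had 116 and 80 counts in sg1, against 130 and 94 in the control (-1.42 ± 0.21; adjusted p = 2.35e-06). The tallest peak of the window moved less, with 390 and 330 counts in sg1, against 284 and 193 in the control (-0.62 ± 0.12).

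The window of LAMB3, whose product is part of the basement membrane of epithelia, was lower as well. The window of CAMK1G, LAMB3, G0S2 and HSD11B1 (chr1:209600000-209699999) had 146.4 and 145.9 CPM in the sg1 libraries, against 231 and 240.2 CPM in the control libraries (-0.69 ± 0.03; adjusted p = 1.54e-27). In it 19 of 29 peaks were lower and 0 higher, 14 of them by more than 2-fold. The LAMB3 promoter peak had 199 and 141 counts in sg1, against 130 and 94 in the control (-0.62 ± 0.18; adjusted p = 0.0105).

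The second window to fall by more than 2-fold held GPAM, which starts glycerolipid synthesis in mitochondria, and TECTB, which encodes an inner ear matrix protein (chr10:112200000-112299999). It had 40.2 and 39.5 CPM in the sg1 libraries, against 95.1 and 107.4 CPM in the control libraries (-1.34 ± 0.05; adjusted p = 3.61e-30). Of its 20 peaks 14 were lower and 0 higher, and the tallest, at an end of GPAM, had 391 and 299 counts in sg1, against 437 and 369 in the control (-1.46 ± 0.11). The window of ZMIZ1, a transcriptional coactivator, PPIF, the mitochondrial cyclophilin D, and ZCCHC24 (chr10:79300000-79399999) had 184 and 179 CPM in sg1, against 299.9 and 296 CPM in the control (-0.72 ± 0.03; adjusted p = 2.11e-30). Here 9 of 22 peaks were lower and 0 higher, and peak changes ran from -3.15 to 0.93.

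**Figure D2:**
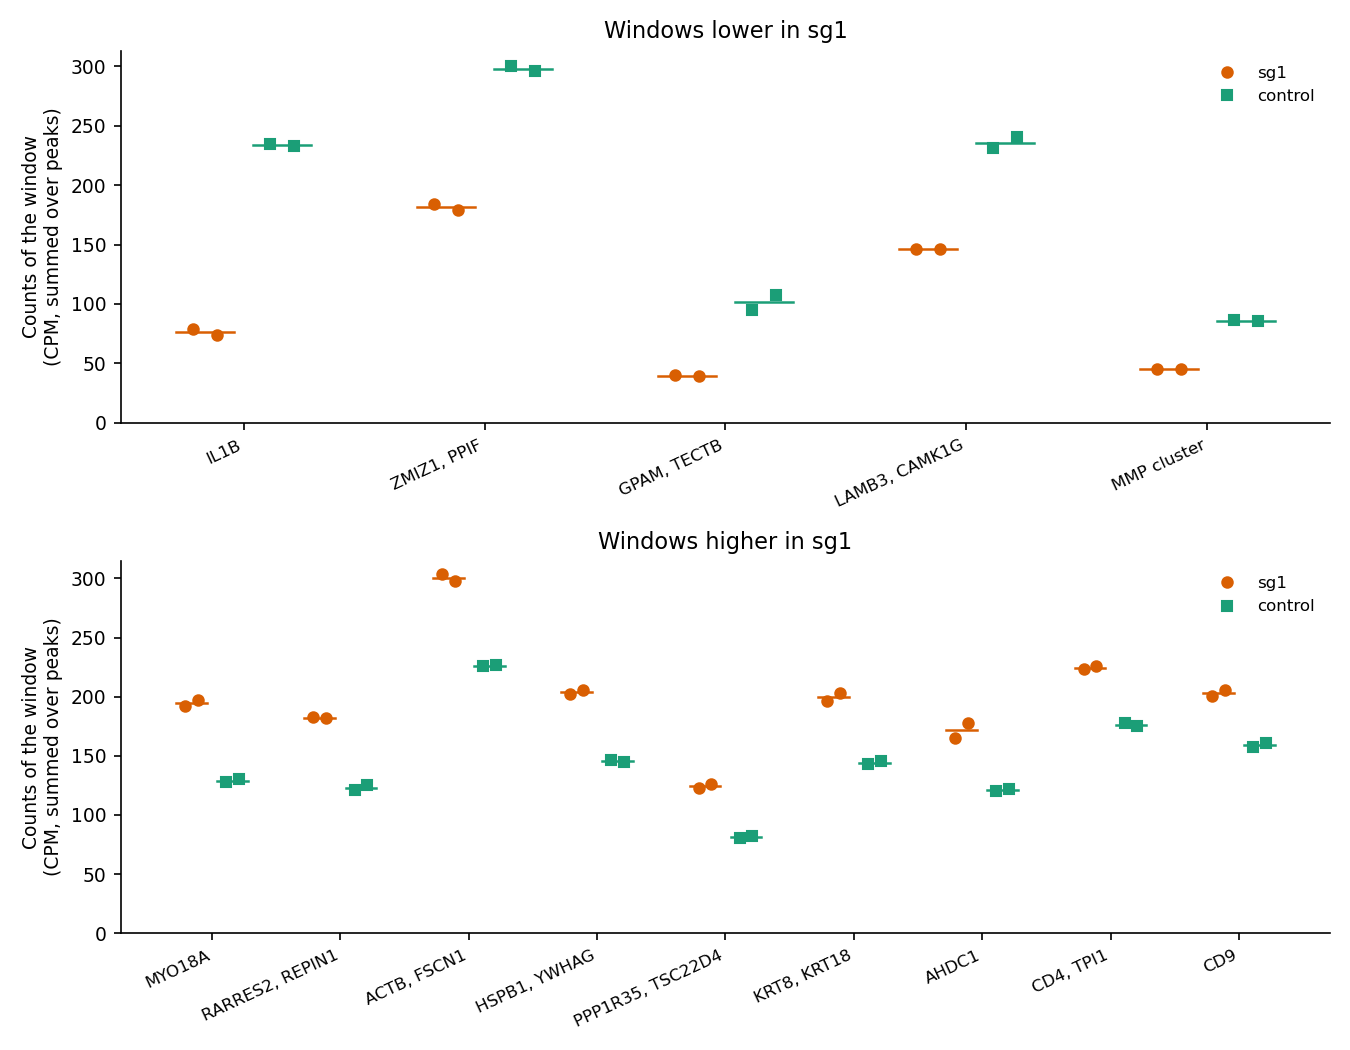
Summed counts in every library of windows described in the text for their smallest p or share of called peaks (CPM, axis from 0; circles sg1, squares control, short lines group means, 2 libraries per group), with windows lower in sg1 above and windows higher in sg1 below. The libraries of a group lie close together and the groups do not overlap in any of these windows. The rule for the smallest p took only windows without overlap. IL1B shows the widest gap, with 79.3 and 73.7 CPM in sg1 and 235 and 233 CPM in the control.

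Among the higher windows the MYO18A window (chr17:29100000-29199999) had the smallest p, with 193 and 198 CPM in the sg1 libraries, against 127 and 130.0 CPM in the control libraries (0.60 ± 0.03; adjusted p = 7.03e-23). Of its 24 peaks 15 were higher and 0 lower, the largest share of higher peaks in any peak-dense window, and all 3 at gene ends were higher. The peak over the MYO18A promoter printed above had 283 and 283 counts in sg1, against 82 and 47 in the control (0.92 ± 0.19; adjusted p = 2.91e-04). The window of KRT8 and KRT18, the keratin pair of simple epithelia (chr12:52900000-52999999), had 197 and 203 CPM in sg1, against 143 and 145 CPM in the control (0.47 ± 0.03; adjusted p = 9.59e-19), with 12 of 25 peaks higher and 0 lower. Its tallest peak, inside KRT8, had 1409 and 1362 counts in sg1, against 670 and 491 in the control, and did not pass (0.04 ± 0.08; adjusted p = 0.75). Shorter peaks of this window were higher, such as that over the printed KRT8 promoter, with 315 and 320 counts in sg1, against 101 and 68 in the control (0.70 ± 0.17). That promoter belongs to a transcript start inside KRT8. It lies beside the tallest peak, which is 23 kb from the nearest gene end.

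Windows of chromosome 7 made up 4 of the 6 higher windows with the smallest p, and the other chromosome 7 windows, with 1 to 19 peaks, had a median log2 fold change of 0.20. The window of ACTR3C, LRRC61, RARRES2, which encodes the chemokine-like adipokine chemerin, REPIN1 and ZNF775 (chr7:150300000-150399999) had 183 and 182 CPM in the sg1 libraries, against 121 and 125 CPM in the control libraries (0.57 ± 0.03; adjusted p = 2.27e-21). The ACTR3C promoter peak had 493 and 441 counts in sg1, against 142 and 88 in the control (0.81 ± 0.14). Its peak near RARRES2 had 964 and 798 counts in sg1, against 193 and 106 in the control (1.35 ± 0.12). The window of FBXL18, ACTB, which encodes beta-actin, and FSCN1, the actin-bundling protein fascin (chr7:5500000-5599999), had 304 and 298 CPM in sg1, against 226 and 227 CPM in the control (0.41 ± 0.03; adjusted p = 1.37e-19). There 14 of 30 peaks were higher and 2 lower, and the peak at ACTB had 1703 and 1460 counts in sg1, against 484 and 380 in the control (0.65 ± 0.08). The window of HSPB1, YWHAG, a 14-3-3 protein, SSC4D and ZP3 (chr7:76300000-76399999) had 202 and 205 CPM in sg1, against 146 and 145 CPM in the control (0.48 ± 0.03; adjusted p = 1.79e-19). The peak over the printed HSPB1 promoter had 495 and 524 counts in sg1, against 108 and 95 in the control (1.11 ± 0.15). The window of 8 protein-coding genes from PILRA to NYAP1 (chr7:100400000-100499999) had 123 and 127 CPM in sg1, against 80.4 and 82.5 CPM in the control (0.62 ± 0.04; adjusted p = 2.88e-19), with 6 of its 11 peaks at gene ends higher and 1 lower. The NYAP1 promoter peak had 94 and 72 counts in sg1, against 15 and 20 in the control (1.00 ± 0.33; adjusted p = 0.0214). Each of these 4 windows was also above the chromosome's median, by 0.21 to 0.42 on the log2 scale.

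The AHDC1 window (chr1:27500000-27599999) was higher over most of its peaks although it held no gene-end peak. AHDC1 encodes a protein with AT-hook motifs that bind DNA. The window had 165 and 178 CPM in the sg1 libraries, against 120.2 and 122 CPM in the control libraries (0.50 ± 0.04; adjusted p = 4.06e-18), and 12 of 22 peaks were higher and 0 lower. The window of 8 genes that includes CD4 and TPI1, a glycolytic enzyme, (chr12:6800000-6899999) had 223 and 226 CPM in sg1, against 177 and 176 CPM in the control (0.35 ± 0.03; adjusted p = 9.03e-15), and 10 peaks were higher and 0 lower. The window of CD9, a tetraspanin (chr12:6200000-6299999), had 200.4 and 205 CPM in sg1, against 158 and 161 CPM in the control (0.35 ± 0.03; adjusted p = 3.69e-14). Both chromosome 12 windows lay nearer to their chromosome's median of 0.15 than the KRT8 window did.

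**Figure D3:**
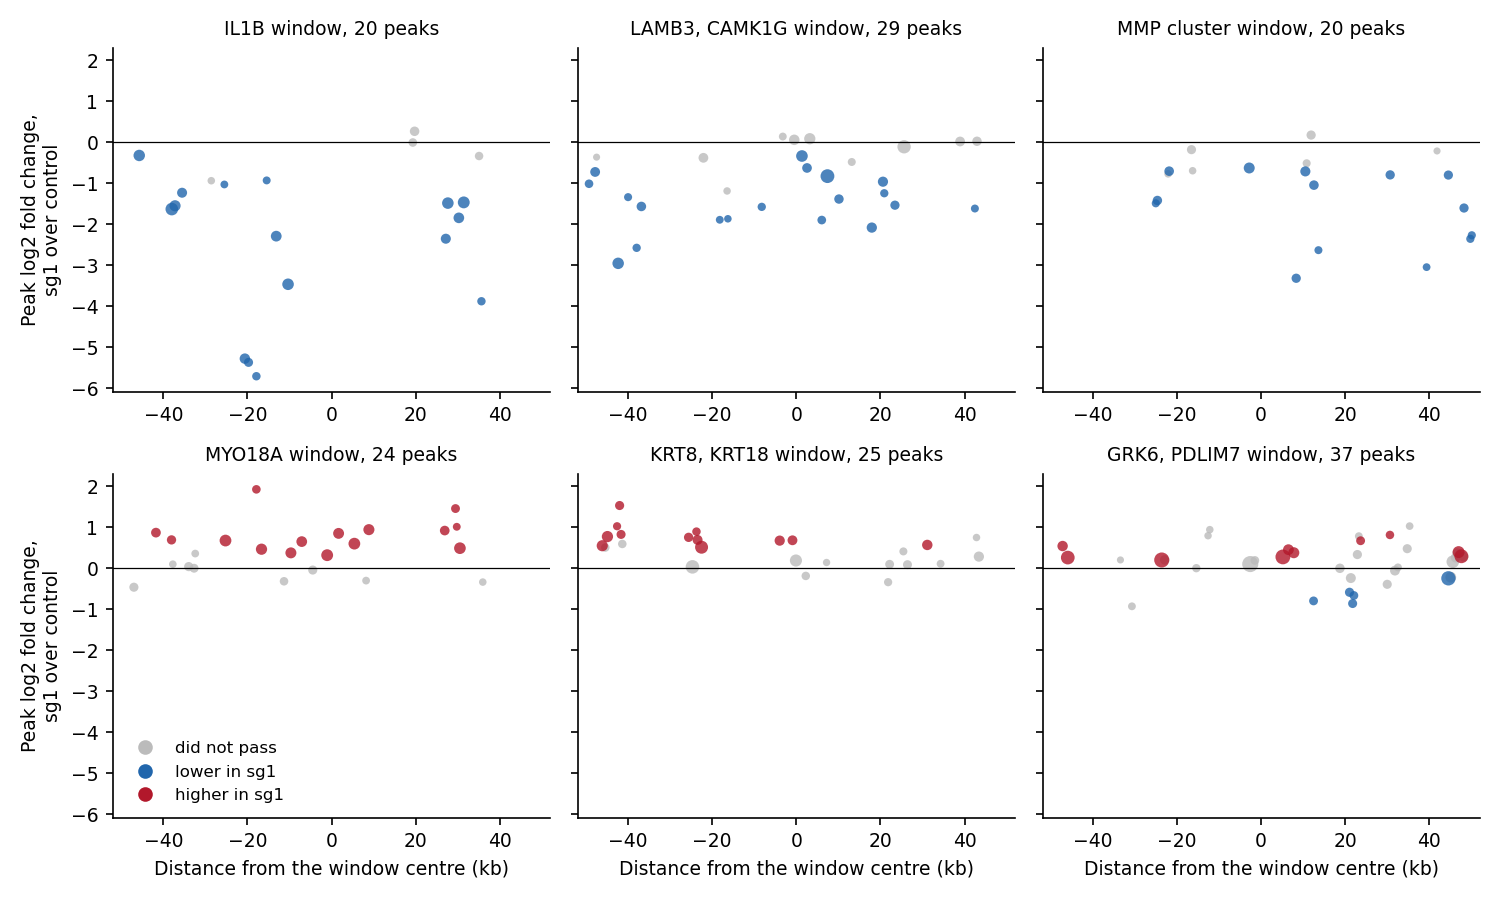
Log2 fold change of each tested peak (sg1 over control, vertical axis) against its distance from the centre of its 100 kb window (kb), for 6 named windows; colours give the call of the peak and larger points have a higher mean CPM. In the IL1B, LAMB3 and MMP windows the called peaks all lie below 0, in the MYO18A and KRT8 windows they all lie above 0, and in the window of GRK6 and PDLIM7 10 are higher and 5 lower.

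Lists of genes with known roles were read through the peak-dense windows their members overlap. The counts below stand beside 34.7% lower and 38.8% higher over all peak-dense windows. Windows named beyond the 3 with the smallest p of a list were chosen after their values were seen. Of 19122 protein-coding genes 2300 (12%) overlap such a window. Of 35 targets of NF-kB, the main transcription factor of inflammatory signalling, 15 did so, in 14 windows, of which 10 were lower and 2 higher, against 34.7% and 38.8% of all peak-dense windows (median log2 fold change -0.17, against 0.01). Besides IL1B, the window of GPX3 and TNIP1, which encodes a partner of the NF-kB inhibitor A20, had 315 ± 5.01 CPM in sg1 and 452 ± 6.24 CPM in the control (-0.52; SD, n = 2 each), with 15 of 28 peaks lower. The window of BIRC3, an inhibitor of apoptosis, had 143 ± 0.143 CPM in sg1 and 194 ± 3.57 CPM in the control (-0.44), with 11 of 23 tested peaks lower. The TNFAIP3 window, of the gene for A20 itself, was lower by -0.63 with 14 of 26 peaks lower, and that of the chemokine gene CXCL1 by -0.49. The windows of BCL3 and RELB, both on chromosome 19, were the 2 that were higher, at 0.19 and 0.27. On that chromosome 58 of 74 peak-dense windows were higher and 3 lower. The lower windows of IL1B and TNFAIP3 lie on chromosomes 2 and 6, where 33 of 54 and 32 of 50 were lower. BIRC3 lies on chromosome 11 (34 of 59 lower), TNIP1 on chromosome 5 (23 of 45) and CXCL1 on chromosome 4 (7 of 21).

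Of 22 AP-1 and immediate early genes 9 lay in 10 peak-dense windows, of which 5 were lower and 4 higher (median -0.06), near the shares over all peak-dense windows. The window of MAFK, a small MAF factor, had 263 ± 0.597 CPM in sg1 and 206 ± 3.81 CPM in the control (0.35; SD, n = 2 each), and 9 of 24 tested peaks were higher. That of DUSP5, a phosphatase of ERK kinases, had 228 ± 2.06 CPM in sg1 and 277 ± 2.52 CPM in the control (-0.28), and that of KLF6, a zinc finger factor, 182 ± 3.30 CPM in sg1 and 217 ± 5.53 CPM in the control (-0.25). Of 22 genes of a YAP and TEAD list, which includes YAP1 and TEAD1 themselves, 14 lay in 15 windows, 6 lower and 3 higher (median 0.03). The window of ASAP1 was lower (-0.39), as was that of AMOTL2 (-0.26), an inhibitor of YAP, and that of GADD45B was higher (0.31). Of the windows of 2 matricellular proteins, that of CCN1 was higher (0.16) and that of CCN2 did not pass (0.06; adjusted p = 0.29).

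Of 20 epithelial genes 9 lay in 8 peak-dense windows, of which 6 were higher and 1 lower, against 38.8% higher and 34.7% lower over all peak-dense windows (median 0.22). Besides KRT8 and KRT18, the KRT7 window had 252 ± 1.89 CPM in sg1 and 203 ± 6.91 CPM in the control (0.31; SD, n = 2 each), with 13 of 32 peaks higher, and the window of CLDN7, a tight junction protein, was higher by 0.33. The lower window was that of EPCAM, an adhesion molecule (-0.15; adjusted p = 0.00332). All 6 higher windows of this list lie on chromosomes 7, 12, 17 and 19, where the windows with 1 to 19 peaks also had medians of 0.14 to 0.20. Of 27 mesenchymal and matrix genes 15 lay in 16 windows, 7 lower and 5 higher (median -0.04). Among them, the window of CAV2, a caveolin, was higher (0.50, 10 of 21 peaks), as was that of ITGA5, an integrin (0.40). The window of the collagen IV genes COL4A1 and COL4A2 was lower (-0.23, 9 of 29 peaks). The adjacent window of CAV2 and CAV1 was higher by 0.12, with 2 of 23 tested peaks lower and 1 higher. The adjacent window of COL4A2 did not pass (-0.03). On chromosomes 7 (CAV2), 12 (ITGA5) and 13 (COL4A1), windows with 1 to 19 peaks had medians of 0.20, 0.15 and -0.14.

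The remaining lists were small or mixed. Of 19 lung metastasis genes 8 lay in 8 windows, 4 lower, those of MMP1, CXCL1, SPARC and TNC, and 3 higher, those of FSCN1, ID3 and ANGPTL4 (median -0.05). Of 22 TGF-beta and SMAD genes 12 lay in 15 windows, 3 lower and 6 higher (median 0.02). The 3 with the smallest p were higher: that of SMAD6 (0.48), an inhibitor of the pathway, that of SMAD3 (0.35), which carries its signals to the nucleus, and that of LTBP3 (0.27), a latent TGF-beta binding protein. The adjacent window of SMAD3 did not pass (-0.05; adjusted p = 0.096). Of 30 ribosomal protein genes 10 lay in 10 windows, 2 lower and 7 higher, against 34.7% and 38.8% of all peak-dense windows (median 0.12), with RPS15 (0.33), RPL18 (0.24) and RPS16 (0.22), having the smallest p-values. These 3 lie on chromosome 19, where 58 of 74 peak-dense windows were higher. Of 18 blood cell markers 3 lay in 4 windows, 0 lower and 2 higher, those of CD4 and LAPTM5 (0.23). No marker gene among PTPRC, CD3E and SPI1 lay in a peak-dense window.

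The 6 windows with the most peaks (ties by higher counts) included 2 chromosome 1 windows without annotated genes, at 0.45 and 0.36, and a window of ribosomal RNA genes on chromosome 21, at 0.11, all described below. Of the others, the MYH9 window (chr22:36300000-36399999), which holds the gene of non-muscle myosin heavy chain IIA, had 38 peaks. It had 233 and 235 CPM in the sg1 libraries, against 248 and 246 CPM in the control libraries (-0.08 ± 0.03; adjusted p = 0.0202), with 5 peaks lower and 2 higher. This call was lost in DESeq2 and without any library other than control replicate 2. The window of PLEC, PARP10 and GRINA (chr8:143900000-143999999), where PLEC encodes the cytoskeletal linker plectin, had 37 peaks and did not pass (0.02 ± 0.02; adjusted p = 0.55), yet it held 4 lower and 5 higher peaks. The window of PFN3, F12, GRK6, PRR7, DBN1 and PDLIM7 (chr5:177400000-177499999), also with 37 peaks, had 485 and 487 CPM in sg1, against 422 and 427 CPM in the control (0.20 ± 0.02; adjusted p = 7.52e-11). The windows with the most counts were that of NBR1, TMEM106A and CCDC200 (chr17:43200000-43299999), with 684 and 685 CPM in sg1, against 709.8 and 718 CPM in the control (-0.06 ± 0.02; adjusted p = 0.0077), that of GRAPL, which did not pass (-0.05 ± 0.02; adjusted p = 0.057), and that of LRSAM1 and NIBAN2 (-0.10 ± 0.02; adjusted p = 1.85e-04). The NBR1 call was lost without either sg1 library and without the tallest peak.

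The windows with the most protein-coding genes moved up slightly. The window of 13 genes from STIP1 to KCNK4 (chr11:64200000-64299999) had 317 and 315 CPM in the sg1 libraries, against 290.4 and 289 CPM in the control libraries (0.13 ± 0.03; adjusted p = 5.49e-05). Of its 21 peaks at gene ends 8 rose and 1 fell, and its smallest p belonged to a lower peak inside BAD, a promoter of apoptosis, and GPR137, with 997 and 860 counts in sg1, against 841 and 572 in the control (-0.82 ± 0.08). The other 2 lie in the major histocompatibility region of chromosome 6. Over that whole chromosome, windows with 1 to 19 peaks had a median of -0.09. The window of 13 genes from ABHD16A to LSM2 was higher (0.18 ± 0.03; adjusted p = 3.24e-07), and 1 peak inside MSH5, a meiotic mismatch repair gene, had 404 and 335 counts in sg1, against 40 and 33 in the control (2.11 ± 0.20). That of 12 genes from TNXB to NOTCH4 was at 0.07 ± 0.03 (adjusted p = 0.02), with 1 peak lower and 4 higher, and this call was lost in DESeq2 and without any library other than control replicate 2.

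A block of peak-dense windows on chromosome 1 held low, narrow peaks and was higher in sg1. Of the 24 peak-dense windows that overlap no annotated gene of any kind, 18 lay between 122.5 and 124.8 Mb on chromosome 1, where GRCh38 places the modelled centromere sequence. They included the longest run of adjacent peak-dense windows, 9 windows from 123.9 to 124.8 Mb with 288 peaks, and the window with the most peaks, 39. All 18 were higher in sg1, with log2 fold changes of 0.33 to 0.77 (median 0.49), against 38.8% of all peak-dense windows higher. Their summed level was 12.6 to 45.7 CPM in sg1 and 9.5 to 33.6 CPM in the control, low for peak-dense windows. Of their 519 peaks 466 were tested, and 30 were higher and 0 lower (6.44% higher, against 11.5% over all peaks). The peaks were narrow and low, with a median width of 191 bp and a median height of 0.49 CPM, against 313 bp and 2.74 CPM over all peaks of peak-dense windows. Low peaks leaned up elsewhere too. Tested peaks under 0.702 CPM had a median log2 fold change of 0.28 in peak-dense windows, the block included, and 0.17 in other windows. Of them 6.66% and 8.76% were higher. The median over the block's tested peaks was 0.48. The part of peak height in the block's change was not tested. Another 5 windows of this stretch had fewer than 20 peaks, and 4 of them were higher (median 0.40). The sources do not say how reads that match several places were treated, and the share of the counts taken by the left-out start of chromosome 1, 25.4% in sg1 and 17.9% in the control, moved in the same direction; the part of either in this result was not tested. In the other 6 peak-dense windows without an annotated gene 3 were lower and 1 higher.

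**Figure D4:**
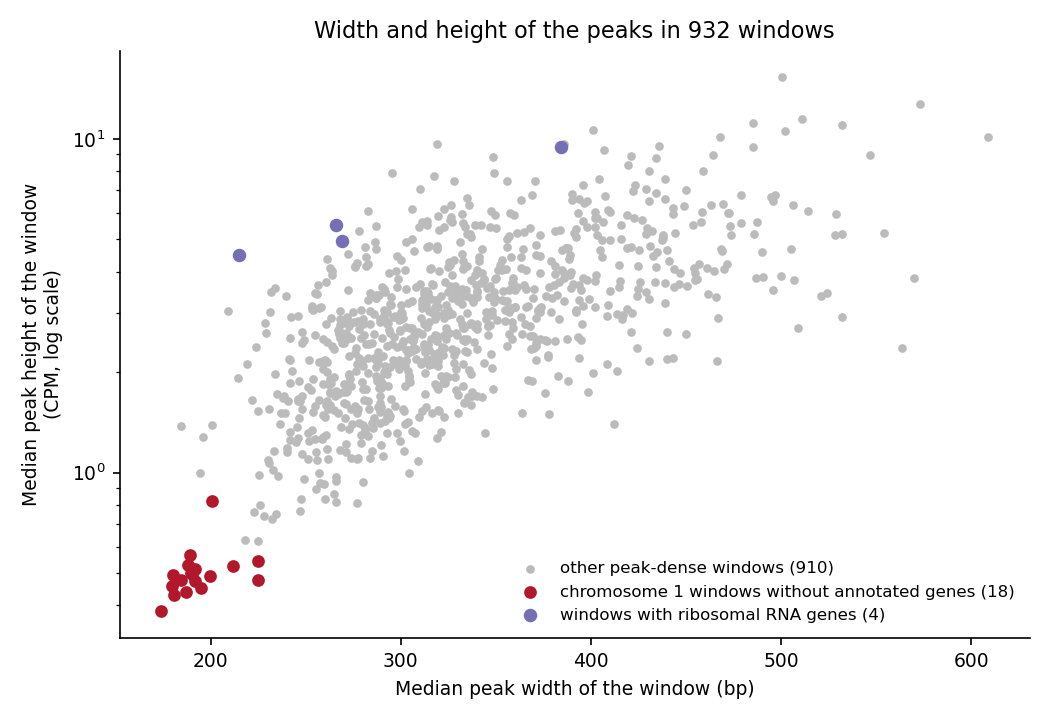
Median peak height (CPM, log scale, mean of the 4 libraries) against median peak width (bp) in each of the 932 peak-dense windows. The 18 chromosome 1 windows without annotated genes form a separate group of low, narrow peaks at the lower left, and the 4 windows with ribosomal RNA genes have tall peaks for their width.

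Some peak-dense windows overlap repeated RNA genes. Of the 4 peak-dense windows that overlap ribosomal RNA genes, 3 adjacent ones on chromosome 21 were higher, at 0.17, 0.19 and 0.11, and that of the 5S genes beside RHOU on chromosome 1 did not pass (0.00; adjusted p = 0.92). Their 124 peaks included 6 higher (4.84%) and 0 lower, against 11.5% higher and 16.8% lower over all peaks. The tallest peak of the third chromosome 21 window (chr21:8400504-8401744) had 2728 and 2377 counts in the sg1 libraries, against 1284 and 924 in the control libraries, and did not pass (-0.01 ± 0.06; adjusted p = 0.93). Of 12 peak-dense windows with 3 or more transfer RNA genes 6 were lower and 3 higher (median -0.08). All 5 of those on chromosome 6 were lower, where 32 of 50 peak-dense windows were lower and 5 higher, led by the window of BTN3A2 and BTN2A2 (-0.48 ± 0.03; adjusted p = 1.16e-21), in which 12 of 22 peaks were lower and 0 higher. Windows with 1 to 19 peaks and 3 or more transfer RNA genes were lower in 16 of 31 and higher in 4. These genes have near-identical copies, so counts at them are uncertain.

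Peak-dense windows were unevenly spread over the chromosomes, and so were their changes. They made up 14.4% of the windows with a peak on chromosome 19 and 9.59% on chromosome 17, against 0.838% on chromosome 18 and 1.18% on chromosome 13. On chromosome 19, 58 of 74 were higher and 3 lower, on chromosome 17, 45 of 73 were higher and 8 lower, on chromosome 12, 30 of 41 were higher and 7 lower, and on chromosome 7, 24 of 36 were higher and 5 lower. On chromosome 2, 33 of 54 were lower and 2 higher, and on chromosome 6, 32 of 50 were lower and 5 higher. The windows with 1 to 19 peaks of these chromosomes moved the same way, with medians of 0.14, 0.16, 0.15 and 0.20 on chromosomes 19, 17, 12 and 7 and of -0.13 and -0.09 on chromosomes 2 and 6. Other chromosomes differed. On chromosomes 5, 10 and 15 peak-dense windows had medians of -0.06, -0.06 and -0.13, against 0.03, 0.02 and 0.002 in windows with 1 to 19 peaks. On chromosomes 9, 16 and 21 these medians were 0.03, 0.03 and 0.08, against -0.03, -0.01 and -0.03. The part of the chromosome in the change of a single window was not tested.

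**Figure D5:**
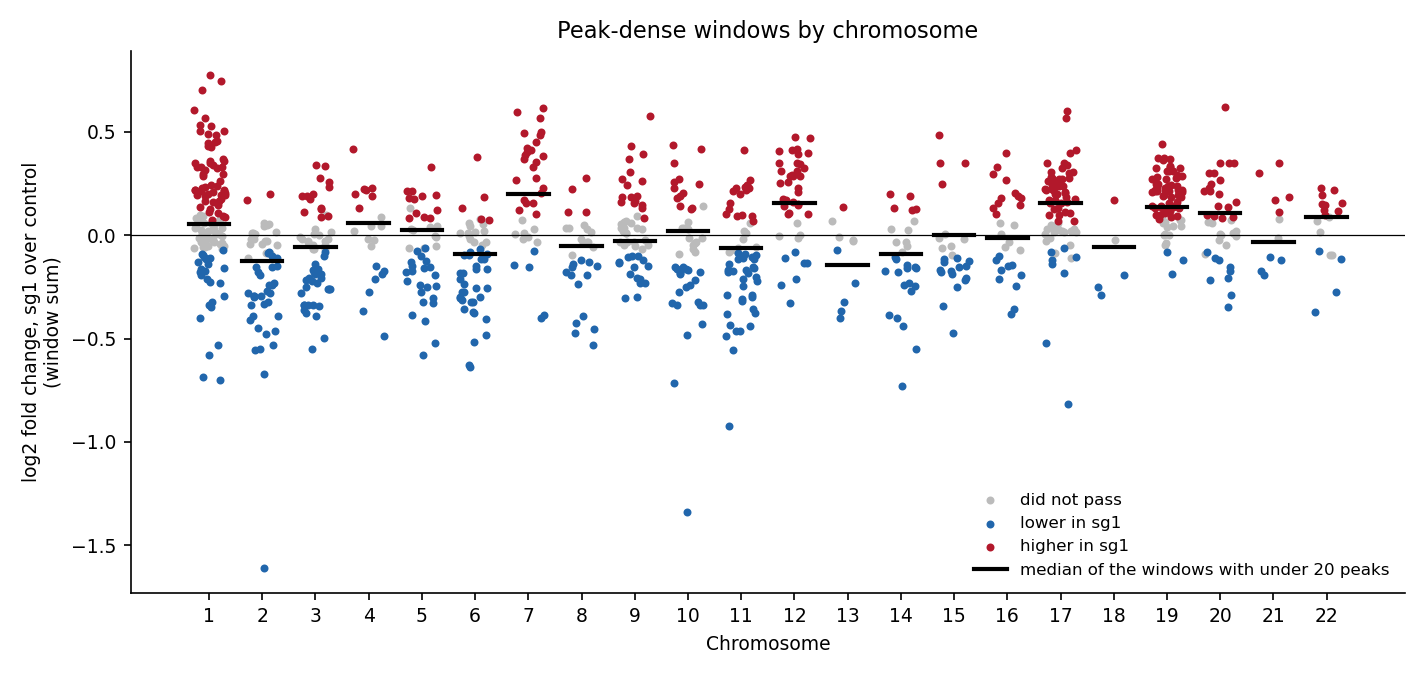
Log2 fold change of the summed counts (sg1 over control) of each peak-dense window by chromosome; points are windows, colours give the call and black lines are the medians of the windows with 1 to 19 peaks. Most points of chromosomes 7, 12, 17 and 19 lie above 0 and most of chromosome 2 below 0, on the side of their black line.

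Adjacent peak-dense windows need not change together. Most, 617 of 932, had no peak-dense neighbour, and 104 runs held 2 windows and 22 held 3. The run of 5 windows on chromosome 19 from 0.8 to 1.3 Mb, from PTBP1 to EFNA2, had 4 higher windows and 0 lower, with values of 0.00 to 0.44, and 32 of its 130 peaks were higher and 9 lower. The run of 7 windows on chromosome 20 from 49.9 to 50.6 Mb spans SNAI1, a repressor that drives epithelial to mesenchymal transition, CEBPB, a factor of inflammatory gene control, and PTPN1, a phosphatase. It had 3 lower and 3 higher windows, from -0.29 to 0.22, and 28 of its 161 peaks were lower and 30 higher.

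The count of 20 peaks marks no step in these values. The 180 windows with 20 peaks had 71 lower and 63 higher windows and a median of -0.01, and the 274 windows with 19 peaks, just outside, had 86 lower and 109 higher and a median of 0.02. By peak number, windows with 1 to 4 peaks were lower in 22% and higher in 16.8%, those with 10 to 14 peaks in 30.3% and 30.8%, and those with 20 to 24 peaks in 35.3% and 38.8%. The 55 windows with 30 or more peaks were lower in 23.6% and higher in 41.8%. Of these 55, 6 overlap no annotated gene, among them windows of the chromosome 1 block, which were all higher in sg1. Tall peaks passed more often than low ones within peak-dense windows. Among the tallest peaks, those above 5.30 CPM, 24.6% of 7253 peaks were lower and 21.0% higher, and among those under 0.702 CPM 7.81% and 6.66% of 3123 tested. Outside these windows, of peaks above 5.30 CPM, 24.7% were lower and 17.3% higher. Of tested peaks outside under 0.702 CPM, 10.4% were lower and 8.76% higher. Between 0.702 and 1.70 CPM, 11.4% were lower and 8.19% higher in peak-dense windows, against 13.3% and 8.47% outside. Between 1.70 and 5.30 CPM these shares were 13.9% and 12.5%, against 17.9% and 11.4% outside. Below 5.30 CPM the lower share was thus smaller in peak-dense windows.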

How the data were processed

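The 4 ATAC-seq libraries of LM2 cells formed 2 groups by their labels, sg1 and control, with 2 libraries each. The deposited table gives raw counts per peak for 190348 peaks, made by the authors with featureCounts 1.6.0 per the file headers. Its inputs are named for cut sites, so each count is taken as 1 end of a fragment rather than a whole fragment. The positions equal those of the authors' deposited peak list. The submitters' processing notes name MACS2 2.2.4, Bowtie2, Trimmomatic 0.39, deepTools 3.1.3, CASAVA, DESeq2 1.32 and SAMtools. How these were set, how reads that match several places were treated and which genome build was used were not given in the sources.

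The build was checked against RefSeq GRCh38.p14. A peak held 63.4% of 21155 starts of protein-coding genes, and 4.0% to 4.7% when peaks were shifted by 2, 10 or 100 kb. RefSeq genes were therefore used to annotate, and printed positions are those of the deposited table. No genome sequence was used here, so peak sequences are not shown. Where a gene's promoter was not in the RefSeq promoter table, it was left out.

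Peaks of chromosome 1 that start within the first 250 kb, 109 in number, were left out of library sizes and tests. They took 25.4% ± 0.0314 of the counts in sg1 and 17.9% ± 0.0775 in the control (SD, n = 2 each). Total counts were 58341297 and 52150389 in sg1 and 25610655 and 18950793 in the control. Peaks, and sums of counts over the peaks of each window, were tested over the whole table with edgeR 4.0.16 under R 4.3.3: filterByExpr removed low counts, TMM scaled the libraries, and the quasi-likelihood F test had group as its sole term, with Benjamini-Hochberg adjustment at 0.05. The biological coefficient of variation was 8.13% for peaks and 3.38% for windows. CPM values are scaled by TMM, and each SE is that of the log2 fold change. The fits were tested on simulated data. Alternatives were library size scaling, DESeq2 1.42.0, no filter, a replicate block, each library left out, chromosome 1's start kept, 15 or 30 peaks, windows shifted by 50 kb, peak midpoints, and, added after seeing the data, windows without their tallest peak and without the 18 windows of chromosome 1 that hold no annotated gene. Other steps used Python 3.11.15, pandas 2.3.3, numpy 2.4.6, scipy 1.17.1 and matplotlib 3.10.9.

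Windows named in the text are those with the most peaks, smallest p or largest share of called peaks in each direction, most and no protein-coding genes, highest counts and the longest run, plus up to 3 windows a gene list by smallest p; further windows of the lists were chosen after their values were seen. In each, the tallest peak and the peak with the smallest p were read. The regions, the 10 gene lists (written from general knowledge) and the naming rule were chosen with earlier results of these data known, so no list is independent support. Results for a few genes and the windows that hold them, among them those of 1 gene list, are not reported here.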

Additional observations from a re-analysis of the deposited data

Results flagged for a closer look

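The peaks of chromosome 1 that start within the first 250 kb belong to no comparison here, yet 2 windows there, with 53 and 54 peaks, would have passed the limit of 20 peaks. The left-out peaks held 25.38% of the counts in sg1 libraries and 17.9% in control libraries, a signal in data that the comparisons leave out, and the groups did not overlap. Groups of 2 libraries were not tested for a library far from the others.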

How the results depend on the processing

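Calls among peak-dense windows were stable in number: the 323 lower and 362 higher windows stayed within 1.5 times under every fit run on these windows, and DESeq2 called 287 and 305 of the same windows. Calls among their peaks were less so, with 2188 lower and 1300 higher in DESeq2, against 3439 and 2896. Leaving out each library in turn gave 2187 to 3313 lower and 1567 to 2711 higher peaks, and 277 to 312 lower and 309 to 348 higher windows. With a limit of 15 peaks in place of 20, 8794 peaks and 962 windows were lower and 6981 peaks and 1042 windows higher. With a limit of 30, 202 peaks and 13 windows were lower and 244 peaks and 23 windows higher; these limits change the number of windows tested. The difference in the share of counts was -0.115 points; it was -1.18 with the start of chromosome 1 kept, -0.16 with windows shifted by 50 kb, and turned to 0.829 at 15 peaks and 0.0273 at 30 peaks; the cause of this change of sign was not tested. It ran from -0.121 to -0.110 with each library left out. Without the 18 windows of chromosome 1, 344 windows were higher and 323 lower.

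Replicate numbers did not pair the libraries: deviations of same-numbered libraries correlated at -0.01 over 95287 peaks. With the replicate block 3374 peaks were lower and 2885 higher, and 321 and 357 windows. The block changed no call of the 35 named windows. Of these windows, 33 kept their call in DESeq2 and 34 without the tallest peak. Over the alternatives, edgeR's and DESeq2's adjusted p ran from 0.00343 to 0.158 for the MYH9 window, from 0.00273 to 0.194 for that of TNXB, from 0.00204 to 0.0916 for that of NBR1 and from 0.00914 to 0.758 for that of GRAPL, which passed with library size scaling and without control replicate 1. The sg1 libraries were deeper than the controls, so control counts limit the precision at low peaks.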
